A study of Mus musculus with 4 samples.

Results

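The 10 genes described here encode the transcription factor subunits of NF-kB (Nfkb1, Nfkb2, Rel, Rela and Relb) and inhibitors that restrain it (Nfkbia, Nfkbib, Nfkbie, Nfkbiz and Tnfaip3). They were chosen by gene symbol, and all 10 were found among the 24548 genes of the deposited count table. All 10 also held enough reads to be among the 23128 genes tested, which required at least 40 reads over the 4 libraries.

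Foxp1, a forkhead transcription factor, was immunoprecipitated with its bound DNA (ChIP) from 2 epithelial cell types, basal and luminal, of wild-type female mouse mammary glands at an age of 10 to 12 weeks. The sample labels spell the strain FBV/N and the series design spells it FVB/N. Each cell type gave 1 ChIP library and 1 input library, that is, DNA sequenced without immunoprecipitation, and no group was treated or replicated. Basal cells are the contractile cells on the outside of a duct, and luminal cells face its lumen. The sources used here do not say how many animals each library came from, and a control antibody library was not analysed here.

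NF-kB subunits pair through a shared Rel homology domain and bind short DNA elements called kappa B sites. In resting cells, I-kappa-B proteins hold the dimers in the cytoplasm, and cytokine or microbial signals activate a kinase complex that marks these inhibitors for destruction. The freed factors switch on inflammatory, survival and growth genes, including genes for their own inhibitors, which ends the response. In the mammary gland the pathway is known for its part in the growth and remodelling of the epithelium, with the cytokine RANKL, encoded by Tnfsf11, as an activator.

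The table held 3080114 to 4201459 reads per library, and the median tested gene had 136 to 192 reads. A value is a raw read count over a gene's counted region, whose extent the sources used here do not state, so a ratio describes the region and not a called binding site. Ratios of ChIP to input were formed after TMM scaling, which corrects for library size. It was computed on the tested genes and places their middle near a ratio of 1. Levels are given as CPM, reads scaled to a common library of 1000000. The limit for a call, in either direction, was a 1.5-fold ratio (0.58 on the log2 scale) together with a 99% counting interval on the same side of 1. With 1 library per group there is no test and no spread between animals, and in bulk chromatin stronger recovery in every cell and recovery from more of the cells cannot be told apart. The labelled cell types were compared with the DNA recovered at marker genes. The 10 basal markers, such as Krt5 and Krt14, summed to 751 CPM in basal ChIP and 412 in luminal ChIP, and to 549 and 452 in the inputs. The 12 luminal markers, such as Krt8 and Epcam, summed to 656 in basal ChIP and 855 in luminal ChIP, and to 547 and 689 in the inputs. The 12 leukocyte markers lay between 459 and 491 in all 4 libraries. No marker of these lists was at 0 in any library, inputs included, so these DNA counts do not show which cells were present.

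In basal cells, Nfkb2 and Tnfaip3 were called higher in Foxp1 ChIP than in input, at 1.61-fold and 1.62-fold. In luminal cells Nfkbia was called higher, at 1.71-fold. No member was called lower in either cell type, and none was called different between the cell types. In basal ChIP 4.24% of all tested genes were called higher and 4.06% lower, and in luminal ChIP 1.5% and 2.13%. Beside these shares stand 2 of 10 members called higher in basal and 1 of 10 in luminal cells, counts too small to read as more than a description.

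Nfkb2 (Entrez gene 18034, protein-coding, chromosome 19, 46300994 to 46312400, GRCm38) encodes a precursor that is processed into the DNA-binding partner of Relb in the noncanonical branch of the pathway. Basal ChIP held 325 reads against 171 in its input, and luminal ChIP 263 against 311. After scaling, basal input was the lowest of the 4 libraries, at 54.7 CPM, and the other libraries lay at 72.9 to 88.2. The basal ratio was 1.61-fold (99% interval 1.26 to 2.07) and ranked 749 of 23128. The luminal ratio was 1.15-fold (0.924 to 1.43) and did not pass. With the inputs of both cell types summed as a common background, the basal log2 ratio of Nfkb2 was 0.44 instead of 0.69 and the call was lost.

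Tnfaip3 (Entrez gene 21929, chromosome 10, 19000910 to 19015410) encodes a ubiquitin-editing enzyme that shuts down signalling below the tumour necrosis factor receptor. Basal ChIP held 317 reads and its input 166, while luminal ChIP held 208 and its input 245. Basal ChIP stood alone on the high side, at 86.0 CPM against 53.1 to 66.4 in the other 3 libraries. The basal ratio was 1.62-fold (1.26 to 2.09), rank 724, and the luminal ratio 1.16-fold (0.901 to 1.48). Its basal call was kept with the inputs summed, at log2 0.63.

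Nfkbia (Entrez gene 18035, chromosome 12, 55489409 to 55492647) encodes I-kappa-B alpha, the main cytoplasmic inhibitor, which is degraded and remade within each round of NF-kB activity. Luminal ChIP held 394 reads over 313 in its input, and basal ChIP 334 over 208. Luminal ChIP was the highest library of any member, at 126 CPM, and basal ChIP stood at 90.6. The luminal ratio was 1.71-fold (1.41 to 2.09) and ranked 203 of 23128, and the basal ratio was 1.36-fold (1.08 to 1.72), with an interval above 1 and a ratio below the 1.5-fold limit. The counts of these genes in each library, with the remaining members, are shown in the plot of reads by library.

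**Figure D1:**
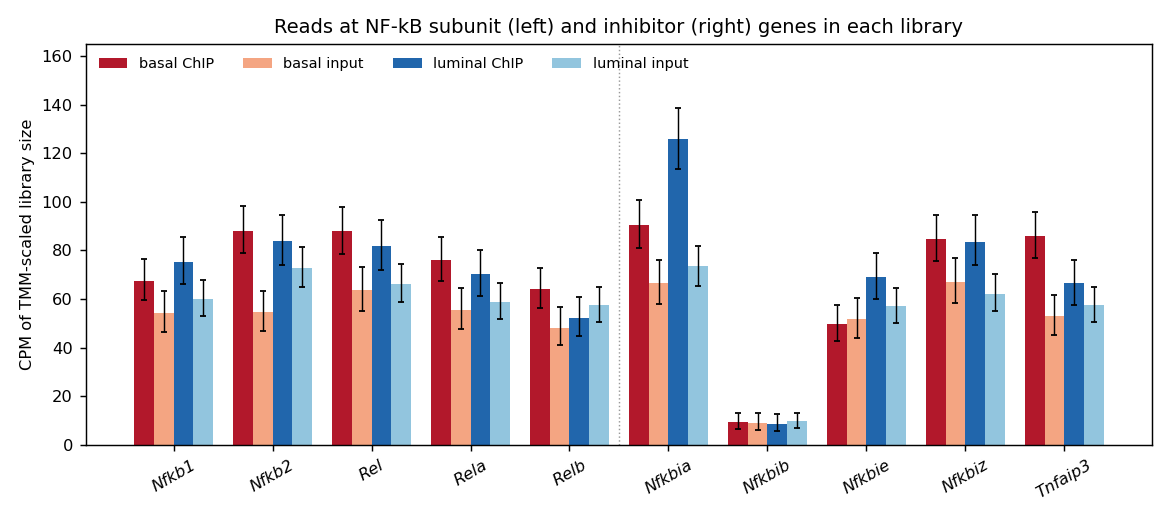
CPM of the TMM-scaled library size at the 10 genes in the 4 libraries, with exact 95% Poisson intervals of each count as error bars (counting error only, 1 library per bar). Nfkbia in luminal ChIP, at 126, is the tallest bar, and Nfkbib lies below 10 in every library.

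The promoters of these 3 genes are shown because motifs near an annotated start can be set beside the ChIP values. Promoter sequences, from 250 bases before to 50 bases after an annotated start, came from RefSeq on GRCm38.p6. In all, 7 of the 10 members matched, with 10 promoters, and Nfkb1, Relb and Nfkbiz did not. The sequences below run 5′ to 3′ on the gene's strand, and capitals mark matches to the kappa B consensus on either strand. They lie at chr19:46304487-46304786 on the plus strand for Nfkb2, at chr10:19015361-19015660 on the minus strand for Tnfaip3 and at chr12:55492598-55492897 on the minus strand for Nfkbia. The stretch for Nfkb2 lies inside the gene coordinates given above, so its start is within the gene and not at their first base.
Nfkb2: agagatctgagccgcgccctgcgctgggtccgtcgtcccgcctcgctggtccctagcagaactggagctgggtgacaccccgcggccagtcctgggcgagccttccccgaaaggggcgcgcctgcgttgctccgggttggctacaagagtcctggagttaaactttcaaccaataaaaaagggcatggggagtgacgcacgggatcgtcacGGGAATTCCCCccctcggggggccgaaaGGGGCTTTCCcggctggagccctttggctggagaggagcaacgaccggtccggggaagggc
Tnfaip3: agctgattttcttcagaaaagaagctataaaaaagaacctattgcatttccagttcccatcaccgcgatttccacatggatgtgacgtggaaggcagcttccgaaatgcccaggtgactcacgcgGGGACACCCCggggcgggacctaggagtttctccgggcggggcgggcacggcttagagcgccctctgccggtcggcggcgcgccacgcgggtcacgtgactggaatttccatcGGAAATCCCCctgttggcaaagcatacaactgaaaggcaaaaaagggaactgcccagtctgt
Nfkbia: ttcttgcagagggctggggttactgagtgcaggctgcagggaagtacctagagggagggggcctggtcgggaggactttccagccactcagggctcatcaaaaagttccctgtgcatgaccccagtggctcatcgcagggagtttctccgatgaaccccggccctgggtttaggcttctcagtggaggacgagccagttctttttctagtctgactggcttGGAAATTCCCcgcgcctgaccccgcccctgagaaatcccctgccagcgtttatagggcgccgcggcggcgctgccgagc

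The forkhead motif TGTTTAC was in none of the 10 member promoters, searched on both strands, and 3.65% of 32851 promoters held it. The shorter TAAACA, whose reverse complement lies within TGTTTAC, was in 1, a second promoter of Tnfaip3 (chr10:19011914-19012213), and in 13.4% of all. The kappa B consensus was in 7 of the 10 promoters and in 8.46% of all. These 7 belonged to 5 genes, Nfkb2, Rel, Nfkbia, Nfkbie and Tnfaip3, and were absent from the promoters of Rela and Nfkbib. In the sequence of Nfkb2 above there were 3 matches. A pair of them overlapped at 39 and 38 bases before the start within the gene (offsets -39 and -38). In Tnfaip3 the matches began at offsets -125 and -12, and in Nfkbia at -29. The other 2 promoters of Nfkb2 overlap each other and share 1 match. A match describes letters only, and no binding of an NF-kB factor was measured here.

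The G and C content of the member promoters ran from 47.0% in the second promoter of Tnfaip3 to 75.0% in Rel, with a median of 52.7% over all promoters. All member promoters except the second of Tnfaip3 lay above this median. The share of promoters of like G and C content that hold the kappa B consensus is not given here. Base composition moved with the ratios across the tested genes that had a promoter sequence. These were split into 4 bins of nearly equal size by promoter GC, a split chosen after the ratios were seen. From low to high GC the bins held 4461, 4290, 4349 and 4332 genes. The tested genes without a promoter sequence, Nfkb1, Relb and Nfkbiz among them, were left out. From the lowest bin (up to 48.3%) to the highest (64.7% and above), the median basal log2 ratio went from -0.15 to 0.16 and the median luminal ratio from -0.06 to 0.08. The share called higher in basal cells went from 1.39% to 7.87% and in luminal cells from 0.61% to 2.7%. Each gene was placed by 1 promoter, the first listed for it. Nfkb2, Rel and Rela lay in the highest bin, Nfkbia, Nfkbie and Tnfaip3 in the next, and Nfkbib in the second lowest. By its second promoter, at 47.0%, Tnfaip3 would fall in the lowest bin. The part of base composition in the members' ratios was not tested.

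The other subunit genes lie on chromosome 3 (Nfkb1, 135584655 to 135691969), chromosome 11 (Rel, 23736847 to 23770969), chromosome 19 (Rela, 5637442 to 5648134) and chromosome 7 (Relb, 19606217 to 19629438). Among the subunit genes, all 5 had a basal ratio above 1, with log2 values from 0.31 to 0.69 and a median of 0.45, against a median of -0.014 over all tested genes. Rela, which encodes the main activating subunit, had 280 reads in basal ChIP over 174 in input, a log2 ratio of 0.45, and 220 over 251 in luminal cells, a log2 ratio of 0.25. Rel, encoding the subunit c-Rel, best known from lymphocytes, had 324 over 199 (0.47) in basal and 256 over 282 (0.30) in luminal cells. The intervals of both genes lay above 1 in basal cells, at 1.06 to 1.76 for Rela and 1.09 to 1.75 for Rel, but neither ratio reached 1.5-fold. Nfkb1 encodes the precursor of the usual DNA-binding partner of Rela. It stood nearly level in the 2 cell types, with 249 reads over 170 in basal cells (0.31) and 236 over 256 in luminal cells (0.33), and passed in neither. Relb, the partner of processed Nfkb2, had 236 over 151 in basal cells (0.41) and 164 over 245 in luminal cells (-0.13). Its luminal value was the lowest among the subunits and the only one of them below 0 there.

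The other inhibitor genes lie on chromosome 7 (Nfkbib, 28758251 to 28766644), chromosome 17 (Nfkbie, 45555700 to 45563169) and chromosome 16 (Nfkbiz, 55811375 to 55838954). The inhibitor genes spanned a wider range, from -0.06 to 0.70 in basal and from -0.16 to 0.78 in luminal cells, with medians of 0.33 and 0.27. The luminal low end was Nfkbib, on only 27 reads over 41, and the next lowest inhibitor there was Tnfaip3 at 0.21. Nfkbiz encodes a nuclear I-kappa-B protein that acts on chromatin-bound dimers and can also promote transcription. It had 312 reads over 210 in basal cells (0.33) and 262 over 265 in luminal cells (0.43); the luminal interval of 1.07 to 1.69 lay above 1, and the ratio of 1.35-fold stayed below the limit. Nfkbie, encoding I-kappa-B epsilon, had 183 over 162 in basal cells, the only basal log2 ratio below 0 (-0.06), and 216 over 243 in luminal cells (0.27). The basal sign of Nfkbie turned to 0.15 when ratios were centred on olfactory receptor genes.

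Nfkbib, encoding I-kappa-B beta, could hardly be measured. Only 35 reads fell in basal ChIP and 28 in its input, and 27 and 41 in the luminal pair, where the other 9 members had 151 or more in every library. Its basal ratio of 1.06-fold has an interval of 0.537 to 2.13, so a difference of 1.5-fold either way was not detectable at this depth. In the RefSeq annotation it overlaps Ccer2 and has 3 neighbouring genes within 5000 bp, the most of any member. Nfkb2 overlaps Psd in the same annotation and still had 1070 reads over the 4 libraries. Tnfaip3 and Nfkbia had no neighbour within 5000 bp, with the nearest at 126338 bp and 70949 bp. How reads shared by neighbouring genes were assigned is not stated in the sources used here, and the part of neighbours in the low count of Nfkbib was not tested.

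**Figure D2:**
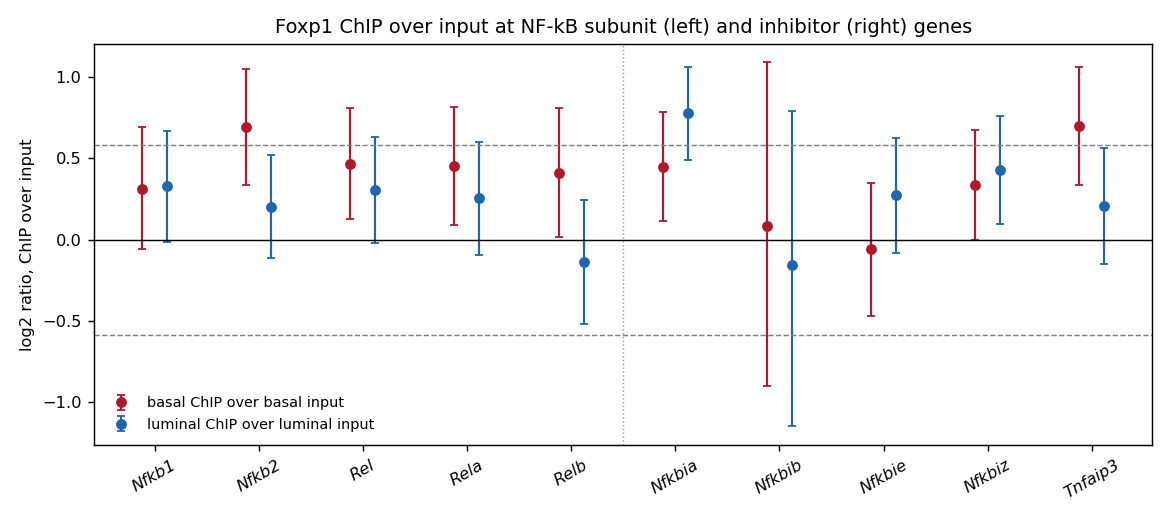
Log2 ratio of ChIP over the input of the same cell type for each member, with 99% counting intervals, and dashed lines at 1.5-fold. Only Nfkb2 and Tnfaip3 in basal cells (red) and Nfkbia in luminal cells (blue) lie past the upper line, and the interval of Nfkbib spans both lines.

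Over all 10 members the median log2 ratio was 0.43 in basal and 0.26 in luminal cells, with 9 and 8 of 10 above 0. All tested genes had medians of -0.014 and -0.002, with 48.4% and 49.6% above 0. The scaling places the middle of these genes near 0, so their values do not measure an absence of enrichment. In basal cells 6 members had a 99% counting interval above 1, and in luminal cells 2. The share of all tested genes with such an interval is not given here, so these counts stand without a background. Olfactory receptor counts varied more than counting alone, with a variance 2.29 times as large in basal and 2.13 times in luminal cells. The intervals therefore understate the spread. The members other than Nfkbib were well covered, and well-covered genes had higher ratios in general. Among the 10410 genes with at least 350 reads over the 2 inputs, a limit set after the values were seen, 6.97% passed upward and 2.13% downward in basal ChIP, and 1.94% and 0.836% in luminal ChIP, with medians of 0.098 and 0.047. All 9 well-covered members lay in this group. Their standard deviation of log2 ratios was 0.22 in basal and 0.24 in luminal cells.

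The inputs themselves differed slightly at these genes. Basal input was below luminal input in 9 of 10 members, with a median log2 ratio of -0.13 against -0.001 over all tested genes and -0.046 over the well-covered ones. Nfkb2 had the lowest value, 0.749-fold (0.582 to 0.959), the only one with an interval that excluded 1, and Nfkbiz the only value above 0 (0.11). No member was called, where 0.709% of all tested genes were called higher in basal input and 0.463% lower. Basal input is the divisor of the basal ratio, so a low basal input raises that ratio and the difference between cell types.

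The 2 cell types were compared by dividing the basal ratio by the luminal ratio. None of the 10 members was called, where 3.72% of all tested genes were called higher in basal and 4.16% higher in luminal cells. Relb differed most, by 0.54 on the log2 scale (standard error 0.21, 99% interval 0.0009 to 1.08), followed by Tnfaip3 at 0.49 (interval -0.01 to 0.98) and Nfkb2 at 0.48 (0.02 to 0.95). Nfkbie and Nfkbia lay on the luminal side, with log2 differences of -0.34 (-0.87 to 0.19) and -0.33 (-0.76 to 0.10). Nfkb1 (-0.01, -0.51 to 0.48) and Nfkbiz (-0.09, -0.56 to 0.37) had intervals inside 1.5-fold in both directions. The intervals of the other 8 members, Rel (0.16) and Rela (0.19) among them, reached past 1.5-fold in at least 1 direction and so held a difference of that size.

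The ChIP libraries were also compared directly, which leaves the inputs out. Nfkbie (0.72-fold, interval 0.552 to 0.937) and Nfkbia (0.72-fold, 0.593 to 0.875) were lower in basal than in luminal ChIP with counting intervals below 1. Tnfaip3 was at 1.30-fold (1.03 to 1.64). In this comparison the variance of olfactory receptor counts was 3.08 times that of counting, so these intervals understate the spread. None reached 1.5-fold, so no member was called, where 4.05% and 3.98% of all tested genes were called in the 2 directions. Those shares need the 1.5-fold limit as well. The share of all tested genes with an interval excluding 1 is not given here. Nfkb2, the member with the lowest basal input, stood at 1.05-fold in this comparison, and its difference of 0.48 was 0.07 without the inputs. Relb stood at 1.22-fold (0.938 to 1.60).

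**Figure D3:**
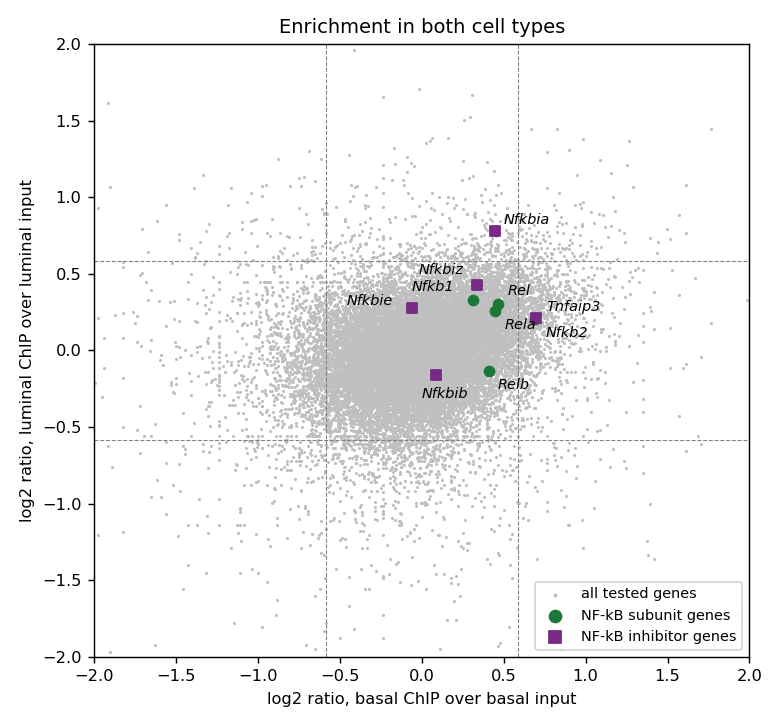
Log2 ratios of ChIP over input in basal (x) and luminal (y) cells for 23128 tested genes in grey, of which 61 lie beyond the axes, with subunit genes as green circles and inhibitor genes as purple squares; dashed lines mark 1.5-fold. Nfkb2 and Tnfaip3 lie together on the basal side (0.69 and 0.70), and Nfkbia lies past the line in luminal cells at 0.78.

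Genes with the most similar pair of ratios were named by the distance between the basal and luminal log2 values, over 2 cell types and 18732 genes with at least 400 reads. For Tnfaip3 the nearest were Nfkb2 at 0.0089, Prdm4 at 0.014 and Ccng2 at 0.016, and 132 genes lay within 0.1. Nfkbia had Npepl1 at 0.013 and Epn1 at 0.033 as nearest, with 18 genes within 0.1. With 2 values per gene such closeness is common, more so near the ratios of Tnfaip3 than near those of Nfkbia.

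The rest of the pathway was described by 5 lists of ligands, receptors, adaptors and kinases, other regulators, and target genes, 98 genes in all, of which 92 were tested. In basal ChIP the calls were 9 up and 3 down and the median log2 ratio was 0.12, beside the 4.24% and 4.06% of all tested genes. In luminal ChIP none was called higher and 2 lower, with a median of 0.05, beside 1.5% and 2.13% of all tested genes. The split in basal cells moved with the centre and with the background library. With ratios centred on olfactory receptors, which shifted all basal log2 ratios by 0.21, 24 were called higher and none lower, beside 12.9% and 1.02% of all tested genes under that centring. With the inputs summed, which left the median of all tested genes in place, 2 were called higher and 3 lower, beside 3.13% and 3.74%.

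Among 14 other regulators the medians were 0.21 in basal and 0.15 in luminal ChIP. In basal ChIP 1 was called, upward, and in luminal ChIP 0, beside 4.24% and 1.5% of all tested genes called higher. The call was Cyld, a deubiquitinase that removes the chains on which the signal depends, with 316 reads over 170 in basal cells (1.58-fold, 1.23 to 2.03) and 273 over 333 in luminal cells (1.12-fold). Bcl3 and Nfkbid, nuclear I-kappa-B proteins like Nfkbiz, had basal log2 ratios of 0.52 and 0.42 and did not pass. The lowest in basal cells was the ubiquitin ligase gene Itch (-0.18), which was the highest in luminal cells (0.37), where Commd1 was lowest (-0.15). The call on Cyld was lost with the inputs summed.

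Of 25 tested adaptor and kinase genes, 0 passed in luminal ChIP, and the list medians were 0.15 in basal and 0.06 in luminal cells. In basal ChIP 3 passed, all upward, beside 4.24% of all tested genes called higher. They were the kinase gene Tbk1 (346 reads over 190, 1.55-fold), the adaptor gene Bcl10 (324 over 180, 1.53-fold) and the ubiquitin ligase gene Birc2 (402 over 227, log2 0.59, just past the limit). All 3 calls were lost with the inputs summed and with total-count scaling. Chuk and Ikbkb, the catalytic subunits of the I-kappa-B kinase, stood at 0.06 and 0.40 in basal and at -0.20 and -0.03 in luminal cells. Ikbkg, its regulatory subunit, had 14 reads over 33 in luminal cells, the lowest luminal ratio of the list at -0.79. Sharpin (11 over 21, -1.17) was lowest in basal and Irak4 (32 over 29, 0.59) highest in luminal cells, none of which passed on so few reads, and Myd88, Irak1, Tradd and Rnf31 were under the limit for testing.

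Of 15 tested receptor genes, 1 was called higher in basal cells, beside 4.24% of all tested genes. It was Tlr4, the receptor for bacterial lipopolysaccharide, with 274 reads over 149 (1.56-fold). Its basal input was itself called lower than its luminal input, at a log2 ratio of -0.63, and the call was lost with the inputs summed. The lowest was Tnfrsf13c (-0.41) in basal and Tlr9 (-0.35) in luminal cells, where Tlr3 was highest (0.50). Tnfrsf11a, the receptor for RANKL, stood at -0.03 in basal and 0.30 in luminal cells. The receptor list had medians of 0.009 and 0.023, close to those of all tested genes.

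The ligand genes lay lower in basal cells. Of 9 tested, 3 were called lower there and none higher, with a median of -0.32, beside 4.06% of all tested genes called lower. In luminal cells 1 was called lower, with a median of 0.05, beside 2.13%. No tested ligand gene reached 350 reads over the 2 inputs. Genes that did had a basal median of 0.098, against -0.014 over all tested genes. The part of coverage in the ligand ratios was not tested. The basal calls were the interleukin genes Il18 (85 reads over 115, log2 -0.67) and Il1a (127 over 163, -0.60) and the B cell factor gene Tnfsf13b (90 over 115, -0.59). These basal calls were lost when the interval was widened by the spread among olfactory receptor genes, and that on Il1a also with the inputs summed. In luminal cells Il1b was called, with 31 reads over 92 (-1.12), a call also lost with the widened interval. Tnf had 74 over 61 in basal and 91 over 105 in luminal cells, and Tnfsf11 had 152 over 135 and 137 over 138, none of which passed. The highest basal value was that of Ltb, 0.09, on 15 reads over 12.

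Of 29 target genes, 4 were called higher in basal cells and 1 lower in luminal cells, with medians of 0.13 and -0.08. Over all tested genes the shares called in those directions were 4.24% and 2.13%. The basal calls were the chemokine genes Cxcl2 (315 reads over 156, 1.71-fold) and Ccl2 (329 over 166, 1.68-fold), the apoptosis inhibitor Cflar (359 over 194, 1.57-fold) and the stress gene Gadd45b (391 over 212, 1.57-fold). With the inputs summed, the calls on Ccl2 and Cflar were kept and those on Cxcl2 and Gadd45b were lost. Mmp9, a matrix protease gene, was called lower in luminal cells (79 over 164, -0.61), which was lost with the inputs summed and with the widened interval. Saa3 was lowest in basal cells (-0.51, not passing). Ccnd1, the cyclin gene needed for growth of the mammary alveoli, stood at 0.46 in basal and 0.55 in luminal cells without passing.

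**Figure D4:**
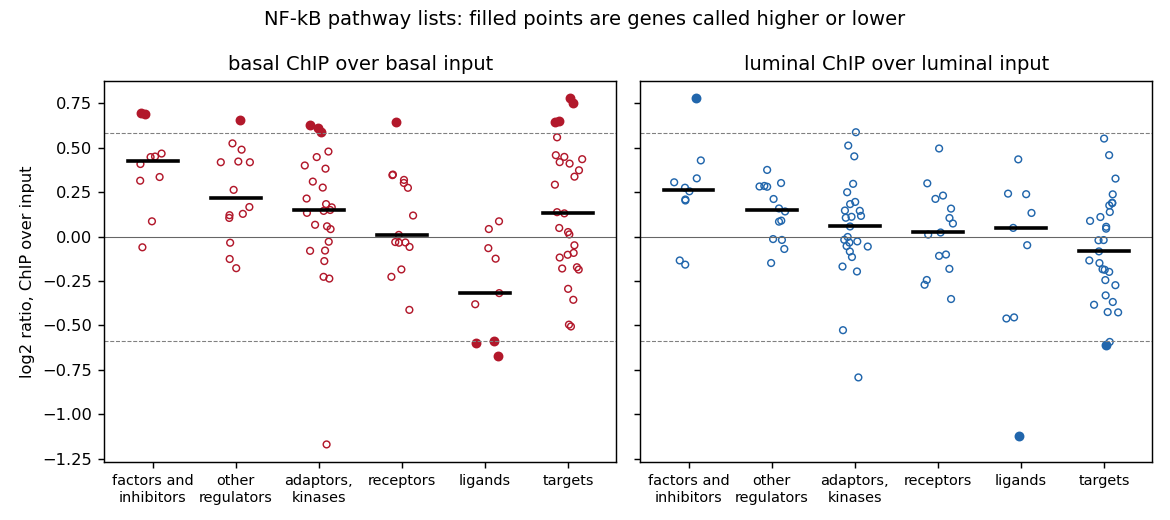
Log2 ratios of ChIP over input for the members and the 5 other lists in basal (left) and luminal (right) cells, each point a gene, filled where called, with black bars at the medians and dashed lines at 1.5-fold. The members have the highest median in both panels (0.43 and 0.26), and the ligands the lowest in basal cells (-0.32).

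In the difference between cell types, 6 of the 92 pathway genes were called higher in basal cells and 1 higher in luminal cells, against 3.72% and 4.16% of all tested genes. The 6 were Cxcl1, Cxcl2, Ccl2 and the growth factor gene Csf3 among the targets, and Bcl10 and Traf1 among the adaptors. With the inputs summed, which makes the difference that of the ChIP libraries alone, the calls on Cxcl1, Cxcl2, Csf3, Bcl10 and Traf1 were lost and that on Ccl2 was kept. Cxcl1 had 307 reads over 177 in basal cells and 185 over 286 in luminal cells, a difference of 0.74 (standard error 0.19). Il1a was the gene called higher in luminal cells, at -0.84 (0.23), a call also lost with the inputs summed. The extremes, Ptgs2 at 1.01 (0.53) and Sharpin at -1.65 (0.68), rested on few reads and were not called.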

How the data were processed

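Foxp1 ChIP and input DNA from basal and luminal mammary cells were measured with 1 library each. The authors deposited raw read counts per gene; per the submitters' processing notes, featureCounts was used with build mm10, and the sources used here give no aligner, version, duplicate handling or counted region. Per the labels' protocols, single reads of 75 to 85 bp were sequenced. The counts of each sample's own table equalled those of the joint table at 24548 of 24548 genes.

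TMM factors (edgeR 4.0.16, R 4.3.3) were computed on the 23128 genes with at least 40 reads; DESeq2 1.42.0 size factors were an alternative. Intervals were computed with scipy 1.17.1 in Python 3.11.15, tables handled with pandas 2.3.3 and numpy 2.4.6, and figures drawn with matplotlib 3.10.9. Ratios have exact Clopper-Pearson intervals, and the ratio of ratios an interval from the 4 counts plus 0.5. Intervals cover counting error only, and PCR copies are not independent molecules. The call rule was run on simulated counts with counting error only and 2-fold changes. The real counts varied more than counting, so this run does not give the error rate of the reported calls. Coordinates are of RefSeq, GRCm38.p6, the assembly of mm10, in which 24480 of 24548 gene IDs were found. Per list, named genes were those called, at most the 4 with the largest ratios, with the highest and lowest; others, such as Bcl3, Nfkbid, Chuk, Ikbkb, Ikbkg, Tnf, Tnfsf11 and Tnfrsf11a, were named for their role after their values were seen. Genes with ratios most like a member's were named by distance, at most 3 each, and 1 of them is not reported here. The members, lists and alternatives were chosen with earlier results of these data known.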

Additional observations from a re-analysis of the deposited data

Results flagged for a closer look

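Enrichment over input was called different between basal and luminal cells for 7 of 92 pathway genes. Each differed by at least 1.5-fold and had a 99% counting interval that excluded no difference. Of the 92, 6.52% were called higher in basal and 1.09% higher in luminal cells, beside 3.72% and 4.16% of all tested genes. The log2 differences, basal over luminal, were 0.75 for Csf3, 0.74 for Cxcl1, 0.74 for Traf1, 0.70 for Ccl2, 0.61 for Bcl10, 0.60 for Cxcl2 and -0.84 for Il1a. None of the 10 NF-kB subunit and inhibitor genes was called. The intervals of Nfkb2 and Relb also excluded no difference, but their differences were below 1.5-fold. With the interval widened by the spread among olfactory receptor genes, Cxcl1 was the only gene of the 7 still called. With the inputs summed, which leaves the direct comparison of the ChIP libraries, Cxcl1 stood at 0.50 and was not called, and Ccl2, at 0.93, was the only one of the 7 called. With 1 library per cell type these differences were not tested against the spread between animals.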

How the results depend on the processing

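The members called were the same genes, Nfkb2 and Tnfaip3 in basal and Nfkbia in luminal cells, with total counts, DESeq2 size factors, no filter, a 95% interval and the interval widened by the receptor spread. Centred on olfactory receptors, 6 members were called in basal ChIP, 3 in the difference between cell types and 1 (lower) between the inputs, beside 12.9%, 8.92% and 3.91% of all tested genes called in those directions. With the inputs summed, 1 was called in basal ChIP, Tnfaip3. With the fold limit lowered to 0.32 on the log2 scale the numbers were 6 in basal ChIP, 2 in luminal ChIP, 2 in the difference and 1 between the inputs. At 2-fold they were 0 in basal and 0 in luminal ChIP. A lower limit can only add calls in any set of genes. The shares of all tested genes at these other limits are not given here, so the member and pathway counts at them stand without a background. The number of the 92 pathway genes called in basal ChIP, 12 as reported, was 24 centred on receptors (9 of them among the 12), 28 at the lower fold limit, 0 at 2-fold and 5 with the inputs summed (4 among the 12). In luminal ChIP it was 2 as reported, 0 with the widened interval, 10 at the lower fold limit and 1 at 2-fold. In the difference it was 7 as reported, 17 centred, 1 widened, 13 at the lower fold limit, 0 at 2-fold and 4 with the inputs summed (1 among the 7). The cause of these changes was not tested, beyond the change of limit, centre or background itself. Of 190 member ratios under other scalings or backgrounds, 189 stayed within the 95% counting interval of the reported value, and 1, the difference at Nfkb2, moved to 0.07 with the inputs summed. Apart from the summed inputs, these alternatives shift every ratio of a comparison by the same amount, so this count is a weak check. The 189 include the basal ratio of Nfkb2 that lost its call with the inputs summed and the basal ratio of Nfkbie that changed sign when centred. The variance of olfactory receptor counts around a common split was set against that of counting alone. It was 2.29 times as large in basal and 2.13 times in luminal ChIP over input. Between the 2 ChIP libraries it was 3.08 times and between the inputs 1.32 times, so counting intervals understate the spread. No paired analysis was possible because each group holds 1 library. Depth limits Nfkbib most.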
